A study of Mus musculus with 7 samples.

Results

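The immediate early genes examined here were Fos, Fosb, Jun, Junb, Egr1, Nr4a1, Ier2, Ier3, Atf3 and Dusp1, taken by symbol as 10 of the 19415 genes listed in any of the 7 single-cell count tables, and all 10 were listed in all 7. The tumours were atypical teratoid rhabdoid tumours (ATRT), embryonal brain tumours driven by loss of the chromatin remodeller subunit Smarcb1, that arose in Rosa26-creERT2::Smarcb1 fl/fl mice. All animals, in both subgroups, carried this inducible deletion, in which the Cre recombinase is expressed from the ubiquitous Rosa26 locus and is not confined to 1 cell type. All received 50 mg/kg tamoxifen at day 6.5 of development. The MYC subgroup comprised 5 libraries, from animals aged 12, 19, 21 and 27 weeks: MYC replicates 1 and 5 were tumours of the basal cerebrum, replicate 4 came from the trigeminal nerve, and replicates 2 and 3 from the trigeminal nerve and the lateral cerebellum. The titles of replicates 2 and 3 share a number and both give an age of 19 weeks, so they were taken as 1 animal, which makes 4 MYC animals. The labels do not state this outright, and every n of 4 below rests on it. With replicate 2 left out of that sum, the genes called between tumour subgroups and between tumour cells and macrophages were the same members as below. The SHH subgroup comprised 2 libraries from 2 animals aged 14 and 16 weeks, both from the striatum and subventricular zone. Subgroup and tumour site therefore cannot be told apart. There was no untreated or normal brain sample among the data examined. Fresh tissue was minced, digested with Accutase at body temperature, freed of red cells and sorted for cells that exclude 7-AAD before droplet capture.

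Immediate early genes are transcribed within minutes of a stimulus from factors that are already present in the cell, without new protein synthesis. Growth factors, calcium, cAMP, cytokines and cell stress reach them through MAP kinases and the serum response factor with its ternary complex partners, and through CREB at cAMP response elements. Fos, Fosb, Jun and Junb form the dimers of the AP-1 transcription factor, Atf3 is a stress-induced partner of the same leucine zipper superfamily, Egr1 is a zinc finger factor, Nr4a1 is an orphan nuclear receptor, Dusp1 is a phosphatase that inactivates MAP kinases, and Ier2 and Ier3 are small early response proteins, Ier3 being known for its part in the survival of stressed cells. Enzymatic dissociation of tissue is itself known to induce these genes, and macrophages and microglia are known to express them readily after isolation.

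Each droplet barcode was placed in a class from raw marker counts alone, none of them an immediate early gene, and counts of unique molecular identifiers (UMIs) were summed per library and class and divided by the total of that class and multiplied by 1000000 (CPM, counts per 1000000). Of 24433 barcodes, 23938 passed the filters, of which 4234 were tumour-gated, 6329 macrophage-gated and 3578 T/NK-gated (T cells and natural killer cells). The libraries held 2150925 to 111985990 UMIs, and tumour-gated cells numbered 54 to 2600 in the MYC libraries, against 419 and 930 in the SHH libraries. The gates separated their own lists, which their limits on these lists fix in advance, so this does not check them. The summed immune list was 17.7 to 79.6 CPM in tumour-gated cells, against 3921 to 6506 CPM in macrophage-gated cells. Smarcb1, which is in no gate list, was 0 to 11.7 CPM in tumour-gated cells, against 21.8 to 65.7 CPM in macrophage-gated cells. Whether the 3′ tags of Smarcb1 lie within the deleted part is not given in the sources used here, so its counts do not check the deletion itself. Gates also admitted RNA from other cells. Macrophage transcripts (C1q genes and Lyz2) stood in tumour-gated cells at 0.102% to 1.47% of their macrophage level, whereas the tumour marker Col1a2 stood in T/NK-gated cells of MYC replicate 5 at 32.8% and in its macrophage-gated cells at 21.5% of its tumour level, against 9.74% and 15.2% in T/NK-gated cells of SHH replicates 1 and 2 for Fabp7. In MYC replicate 5, 1875 barcodes carried at least 3 UMIs of both the immune and the tumour list. Over all library pairs 232 barcode sequences were shared, the most (76) between MYC replicate 5 and SHH replicate 1. These are the libraries with the most barcodes, 15282 and 3864. Whether the sharing exceeds what the library sizes alone would give was not tested, so it does not show RNA carried between libraries. The macrophage sum of MYC replicate 2 rested on 11 cells and was used only added to that of replicate 3.

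The promoters of the genes on which the results below turn, Nr4a1, Ier3 and Atf3, which differed between tumour subgroups, and Dusp1, which differed most firmly between cell classes, are shown from 250 bases before to 50 bases after the RefSeq transcription start in GRCm38.p6, read 5′ to 3′ on the strand of the gene. Capitals mark the letters TGACG on either strand (CGTCA when on the other strand), the core of the cAMP response element bound by CREB and ATF factors.
Nr4a1 promoter, chr15:101266596-101266895, plus strand: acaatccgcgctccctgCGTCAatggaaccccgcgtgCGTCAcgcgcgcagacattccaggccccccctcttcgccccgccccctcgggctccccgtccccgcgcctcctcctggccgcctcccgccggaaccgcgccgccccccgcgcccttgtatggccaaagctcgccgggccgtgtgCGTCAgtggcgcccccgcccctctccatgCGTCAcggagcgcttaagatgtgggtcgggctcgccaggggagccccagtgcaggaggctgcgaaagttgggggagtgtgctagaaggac
Ier3 promoter, chr17:35821463-35821762, plus strand: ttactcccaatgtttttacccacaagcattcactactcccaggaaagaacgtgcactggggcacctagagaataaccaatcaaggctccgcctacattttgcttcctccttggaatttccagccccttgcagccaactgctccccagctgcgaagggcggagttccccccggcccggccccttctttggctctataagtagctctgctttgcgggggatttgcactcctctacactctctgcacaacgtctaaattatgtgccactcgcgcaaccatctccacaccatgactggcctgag
Atf3 promoter, chr1:191183284-191183583, minus strand: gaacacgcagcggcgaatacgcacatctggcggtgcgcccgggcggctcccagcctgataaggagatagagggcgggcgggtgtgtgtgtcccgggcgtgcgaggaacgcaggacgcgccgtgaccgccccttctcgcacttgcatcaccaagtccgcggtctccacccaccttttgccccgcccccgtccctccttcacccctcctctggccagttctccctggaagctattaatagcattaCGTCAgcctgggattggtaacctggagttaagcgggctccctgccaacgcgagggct
Dusp1 promoter, chr17:26508423-26508722, minus strand: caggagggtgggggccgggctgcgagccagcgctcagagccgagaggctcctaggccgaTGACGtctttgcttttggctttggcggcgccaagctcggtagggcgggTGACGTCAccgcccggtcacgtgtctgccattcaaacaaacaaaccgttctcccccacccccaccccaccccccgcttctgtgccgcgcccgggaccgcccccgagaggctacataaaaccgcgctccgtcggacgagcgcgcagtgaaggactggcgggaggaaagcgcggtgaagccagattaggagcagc
The Nr4a1 window held 4 such cores, beginning 233, 213, 69 and 40 bases before the start, the Atf3 window held 1 that began 7 bases before it, and the Ier3 window held none. In Dusp1 1 core began 191 bases before the start, and the full palindromic element (CRE) lay 143 to 136 bases before it. Among the 8 members with a promoter in the RefSeq table, 6 (Atf3, Dusp1, Fos, Fosb, Junb and Nr4a1) held a TGACG core on either strand, against 20.8% of all 32851 promoters of the same length, and 1 held the full element, against 1.79%. A serum response (CArG) core was found in 0 of the 8, against 1.63% of all promoters, and the AP-1 letters TGANTCA in 0 of the 8, against 7.81%. Egr1 and Ier2 were not among the 8, so these counts do not cover them. These matches describe letters in a fixed window, and the absence of a match says only that the letters are not in it.

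The first question was whether tumour cells of the MYC and SHH subgroups differed in these genes. Nr4a1, Ier3 and Atf3 were higher in MYC tumour cells, by fitted folds of 10.0 to 57.9, whereas Jun, Egr1 and Ier2 overlapped between the subgroups and did not pass the test. Nr4a1 measured 51.2, 58.5, 7.45, 82.0 and 73.1 CPM in MYC replicates 1 to 5, against 3.09 and 1.86 CPM in the SHH tumours. All MYC libraries lay above both SHH libraries, and the 2 libraries of the shared animal differed widely, with the trigeminal library high and the cerebellar library low. Summed by animal, the log2 fold change of Nr4a1, MYC over SHH, was 4.83 ± 0.78 (SE; 4 and 2 animals), with an adjusted p of 0.0193 by edgeR's quasi-likelihood test. Ier3 measured 47.2, 49.7, 124, 39.8 and 146 CPM in MYC replicates 1 to 5, against 1.55 and 1.86 CPM in the SHH tumours, which rested on 2 and 7 UMIs with exact Poisson 95% intervals of 0.187 to 5.58 and 0.750 to 3.84 CPM. The lowest MYC library was thus far above the upper bound in either SHH tumour, and the log2 fold change was 5.85 ± 0.83 (edgeR adjusted p = 0.0134). Atf3 measured 32.3, 26.3, 17.7, 52.2 and 51.3 CPM in MYC replicates 1 to 5, against 5.41 and 4.00 CPM in the SHH tumours, again without overlap, and its log2 fold change was 3.33 ± 0.58 (edgeR adjusted p = 0.0225).

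Of the 4 classical AP-1 genes none was called between the tumour subgroups. Junb measured 403, 1612, 1218, 338 and 687 CPM in MYC replicates 1 to 5, against 148 and 81.8 CPM in the SHH tumours, and Fosb measured 189, 123, 115, 161 and 241 CPM, against 63.4 and 73.5 CPM. Neither gene overlapped between subgroups, and both lay just above the threshold, Junb with a log2 fold change of 2.83 ± 0.69 (edgeR adjusted p = 0.0566) and Fosb with 1.63 ± 0.40 (edgeR adjusted p = 0.0590). Fos lay lower in 1 MYC library than in an SHH tumour, with 970.4, 1194, 1118, 529 and 1380.1 CPM in MYC replicates 1 to 5, against 522 and 595 CPM in the SHH tumours, and a log2 fold change of 1.11 ± 0.44 (edgeR adjusted p = 0.178). Jun averaged 784 ± 329 CPM in MYC tumour cells (SD, n = 4 animals) and 687 ± 163 CPM in SHH tumour cells (SD, n = 2), with a log2 difference of 0.45 ± 0.47 (SE). Dusp1, the phosphatase, measured 71.4, 573, 294, 119 and 156 CPM in MYC replicates 1 to 5, against 39.4 and 36.5 CPM in the SHH tumours, without overlap and with a log2 fold change of 2.47 ± 0.69 (edgeR adjusted p = 0.0809). Egr1 averaged 353 ± 85.0 CPM in MYC and 355 ± 176 CPM in SHH tumour cells (SD, n = 4 and 2), and Ier2 averaged 411 ± 90.6 CPM in MYC and 405 ± 213 CPM in SHH tumour cells (SD, n = 4 and 2). The fitted differences of Egr1 (0.26 ± 0.40) and Ier2 (0.28 ± 0.40) changed sign when the barcodes of highest UMI totals or SHH replicate 2 were left out. In all, 3 of 10 members were called, each of them higher, where 6.48% of the 10221 genes tested were called and 3.47% were called higher, and 6 of 10 lay higher in every MYC animal than in every SHH animal, where 12.7% of genes did. The median log2 fold change of the 10 members was 2.05, against 0.04 over all genes tested. The members were chosen with earlier results of these data known, so counts and medians of the set, here and below, are descriptions only.

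**Figure D1:**
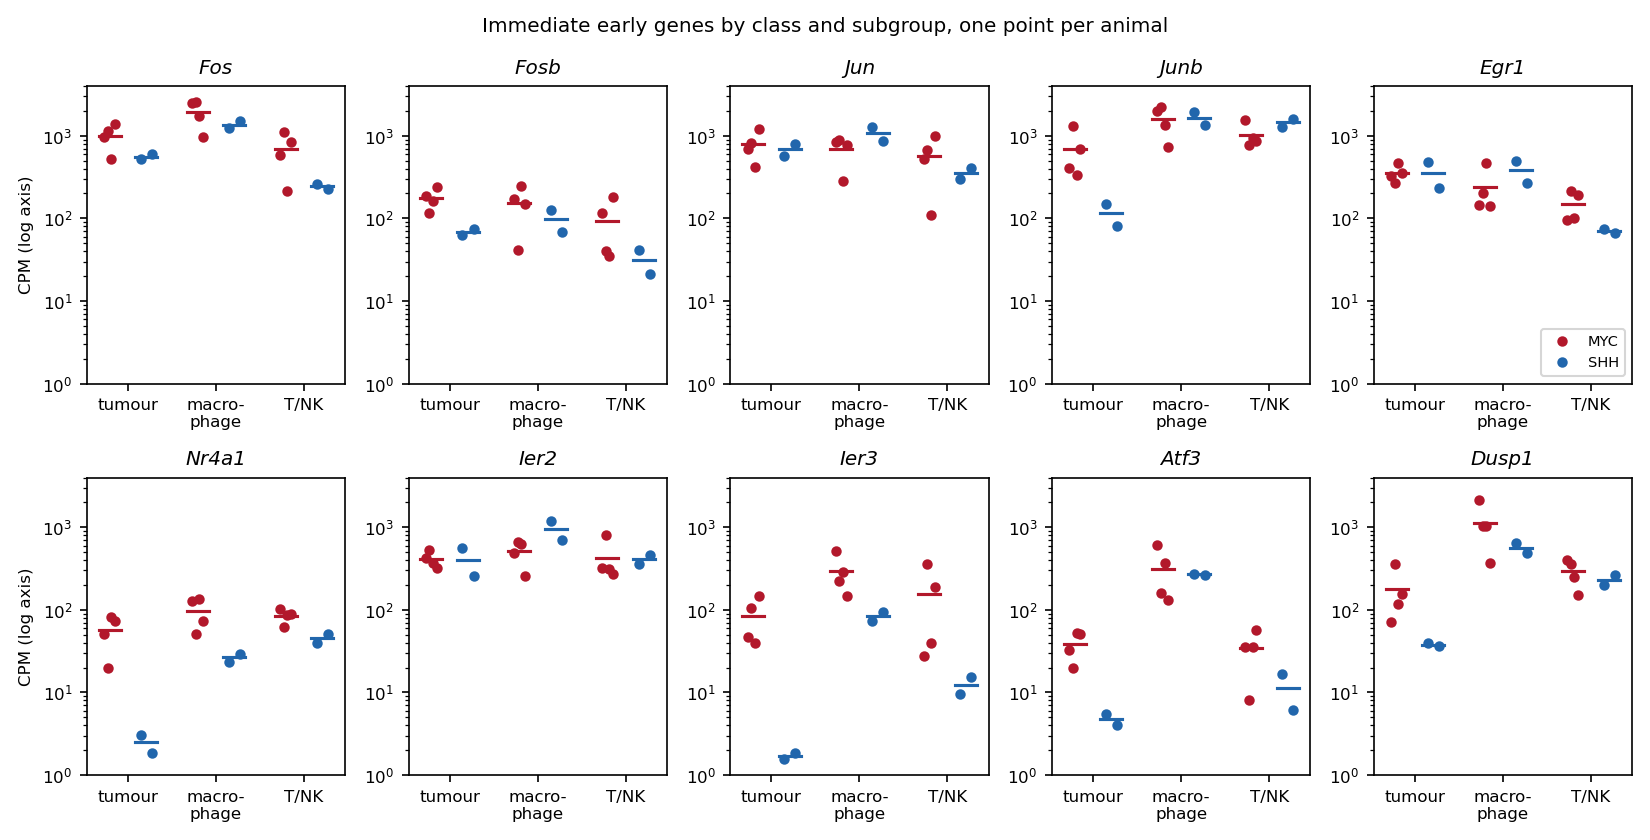
Level of each immediate early gene in CPM (log axis) in tumour-gated, macrophage-gated and T/NK-gated cells, with 1 point per animal and a bar at the mean, MYC animals (n = 4) in red and SHH animals (n = 2) in blue. In tumour cells Nr4a1, Ier3 and Atf3 stood at 19.8 to 146 CPM in MYC animals, against 1.55 to 5.41 CPM in SHH animals, while Jun, Egr1 and Ier2 overlapped.

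These calls rested on both SHH animals. With either left out, the fit, which then takes the spread of the lone SHH animal from the MYC animals, called 0 of the 10 members and 12 or 21 of all genes, against 662 with both. Nr4a1 then had adjusted p-values of 0.167 and 0.214 in edgeR at log2 fold changes of 5.16 and 4.47. Atf3 also missed the threshold without MYC replicate 5 (edgeR adjusted p = 0.0510), which held 2600 of the MYC tumour-gated cells. With a covariate for repeated sequencing the same 3 members were called, where 3.88% of genes were. DESeq2 called 6 members, where it called 15.7% of the 10221 genes. Without scaling factors, 313 genes were called higher and 480 lower in MYC tumour cells, against 355 and 307 with them, and 3 members were called higher.

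Shares of cells with a UMI were compared after each cell was thinned to 1000 UMIs, which removes differences in depth. Nr4a1 was detected in 1.20%, 5.56%, 0%, 6.45% and 6.92% of thinned tumour cells of MYC replicates 1 to 5, against 0.509% and 0.222% in the SHH tumours. The order of the levels held in 4 of the 5 MYC libraries, since replicate 3 lay below both SHH tumours. For the 0 of 85 cells in MYC replicate 3 the exact Clopper-Pearson 95% interval reaches 4.25%, so at this depth that library cannot be separated from the SHH tumours by cells. Ier3 was detected in 3.61%, 3.70%, 10.6%, 3.23% and 10.0% of thinned MYC tumour cells, against 0.254% and 0.333% of thinned SHH tumour cells, and all 5 MYC libraries lay above. The shares of MYC replicates 1, 2 and 4 rested on 3, 2 and 2 cells. Their exact 95% intervals began at 0.752%, 0.452% and 0.393%, below the upper bounds of the SHH tumours (1.41% and 0.970%). Only the intervals of MYC replicates 3 and 5 began above these bounds, at 4.96% and 8.87%. Egr1 showed no order by subgroup, with 14.8% to 29.8% of thinned MYC tumour cells, against 32.3% and 14.98% of thinned SHH tumour cells. In the SHH tumours the levels of Ier3 (1.55 and 1.86 CPM) lay beside macrophage levels of 73.1 and 94.1 CPM in the same animals, where macrophage transcripts stood in tumour-gated cells at 1.13% and 0.246% of their macrophage level; how far such carried-over RNA makes up the SHH values was not tested.

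Other genes of the same response were compared from lists of related genes, to be read against the 3.47% of all genes called higher. The lists too were chosen with earlier results of these data known, so their counts and medians, here and below, are descriptions only. Of 22 other early response genes tested, 4 were called higher in MYC tumour cells and 0 lower, among them Klf4, a zinc finger factor (220.6 ± 96.9 CPM in MYC and 22.0 CPM on average in SHH; log2 fold change 3.61 ± 0.65, edgeR adjusted p = 0.0243), and Zfp36l2, which destabilises AU-rich messenger RNAs (124 ± 64.1 CPM in MYC and 20.3 CPM in SHH). Cebpb, a leucine zipper factor of the acute response, averaged 25.3 ± 21.0 CPM in MYC tumour cells (SD, n = 4) and had 0 UMIs in both SHH tumours. Among 10 NF-kB early response genes, 3 were called higher, the NF-kB subunits Nfkb2 (32.6 ± 3.49 CPM in MYC and 4.18 CPM in SHH) and Relb (29.7 ± 10.7 CPM in MYC and 1.97 CPM in SHH), and the adhesion molecule Icam1. The AP-1 gene Fosl2 was the 1 of 10 other AP-1 and CREB/ATF factors called, with 55.3 ± 25.4 CPM in MYC and 1.45 CPM in SHH tumour cells. Dusp5, a nuclear phosphatase of ERK, was 1 of 9 phosphatases and feedback inhibitors called higher, and Hspa1b, an inducible Hsp70 gene, was 1 of 11 heat shock genes, with 11.6 ± 3.51 CPM in MYC and 0 UMIs in both SHH tumours. None of 17 genes of the SRF and ERK pathway was called, the smallest p being that of the kinase Map2k1 (edgeR adjusted p = 0.115). The medians of these lists ran between 0.26 for the SRF and ERK pathway and 2.72 for the NF-kB genes on the log2 scale, against 0.04 over all genes tested. Summed heat shock genes stood at 5128 to 9323 CPM in MYC tumour cells, against 6892 and 6945 CPM in SHH tumour cells, and thus overlapped.

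Among immune cells the subgroup difference was called for none of the members. In macrophages, edgeR called 0 of 10 members, where 0.262% of 7262 genes were called. In all, 963 genes, among them Nr4a1, Ier3 and Ier2, had an unadjusted p under 0.05. DESeq2 called 1 member, Nr4a1, where it called 5.51% of genes. Nr4a1 measured 129, 134 and 73.6 CPM in macrophages of MYC replicates 1, 4 and 5 and 51.4 CPM in the animal of replicates 2 and 3, against 23.6 and 29.5 CPM in the SHH animals. This lack of overlap came with a log2 fold change of 1.76 ± 0.52 (edgeR adjusted p = 0.162). Ier3 ran from 146 to 509 CPM in MYC macrophages, against 73.1 and 94.1 CPM in SHH macrophages (log2 fold change 1.67 ± 0.56, edgeR adjusted p = 0.220). Ier2 ran the other way, with 254 to 658 CPM in MYC macrophages, against 1198 and 694 CPM in SHH macrophages (log2 fold change -1.06 ± 0.46, edgeR adjusted p = 0.371). These 3 were the members without overlap between the subgroups in macrophages, where 21.0% of genes had none. Atf3 averaged 315 ± 219 CPM in MYC macrophages (SD, n = 4) and 268 ± 3.28 CPM in SHH macrophages (SD, n = 2), a log2 difference of 0.10 ± 0.63 (SE).

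In T/NK cells, edgeR also called 0 of 10 members, where 0.0388% of 7725 genes were called. In all, 365 genes had an unadjusted p under 0.05, among them Fos, Egr1, Nr4a1 and Ier3. DESeq2 called 1 member, Ier3, where it called 0.466% of genes. Ier3 measured 27.6, 39.6 and 190.2 CPM in T/NK cells of MYC replicates 1, 4 and 5 and 358 CPM in the animal of replicates 2 and 3, against 9.45 and 15.2 CPM in the SHH animals. The 358 CPM came almost wholly from replicate 2, with 130 UMIs (457 CPM), while replicate 3 had 3 UMIs (34.7 CPM). The log2 fold change of Ier3 was 3.78 ± 1.17, with the smallest unadjusted edgeR p of the members (0.0105). All 10 members had the same edgeR adjusted p of 0.997. Nr4a1 had 62.0 to 102 CPM in MYC T/NK cells, against 39.4 and 51.6 CPM in SHH T/NK cells. Egr1, Nr4a1 and Ier3 were the 3 members higher in every MYC animal, where 5.17% of genes were. By library this did not hold for Egr1 and Nr4a1. The 29 T/NK cells of MYC replicate 3 had 0 UMIs of Egr1 and 2 of Nr4a1 (23.1 CPM). Both levels lay below those of both SHH animals, which had 74.0 and 66.7 CPM of Egr1. For these genes the lack of overlap thus rests on adding replicates 2 and 3. Cxcl2, an NF-kB induced chemokine, had the smallest p of the NF-kB list in T/NK cells (log2 fold change 4.50 ± 0.66, edgeR adjusted p = 0.104). None of the 6 lists of related genes had a called gene in either immune class.

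**Figure D2:**
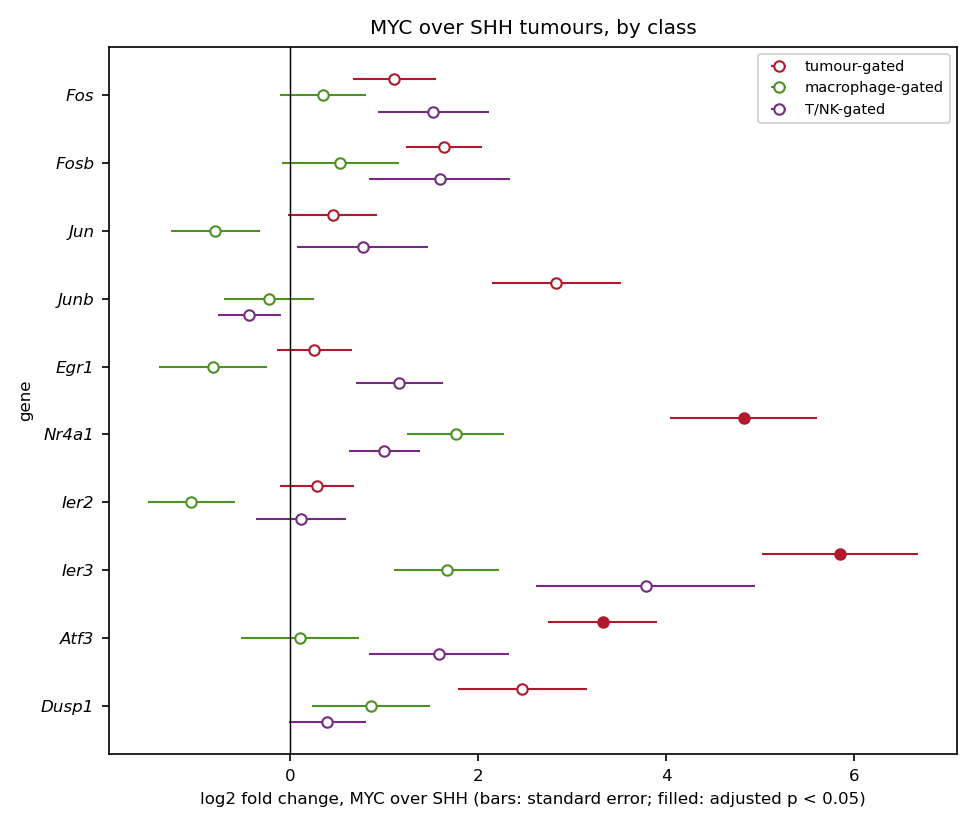
Log2 fold change, MYC over SHH, of each immediate early gene in tumour-gated, macrophage-gated and T/NK-gated cells, with standard errors; filled points have an edgeR adjusted p under 0.05. Nr4a1 (4.83), Ier3 (5.85) and Atf3 (3.33) in tumour cells are the filled points.

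Whether the subgroup difference was larger in tumour cells than in macrophages was tested as the interaction of class and subgroup, with the animal as a block. The tumour to macrophage difference was higher in MYC animals for Nr4a1, with a log2 interaction of 3.09 ± 0.63 (SE) and an edgeR adjusted p of 0.0486, as 1 of 10 members where 1.65% of 10935 genes were called and 1.38% were called higher. Ier3 (4.18 ± 1.14, edgeR adjusted p = 0.115), Atf3 (3.43 ± 0.80, edgeR adjusted p = 0.0703) and Junb (2.96 ± 0.71, edgeR adjusted p = 0.0781) had interactions of similar size that were not called. For Junb the MYC animals had 338 to 1313 CPM in tumour cells beside 737 to 2237 CPM in macrophages, against 148 and 81.8 CPM in tumour cells beside 1944 and 1337 CPM in macrophages of the SHH animals. The smallest interaction was that of Fos, at 0.70 ± 0.66. Without SHH replicate 1 or SHH replicate 2, 0 genes of all tested were called, and the call of Nr4a1 was also lost without MYC replicate 4 (edgeR adjusted p = 0.0721) with cells thinned to 1000 UMIs (edgeR adjusted p = 0.0530), with the animal of MYC replicates 2 and 3 taken from replicate 3 alone (edgeR adjusted p = 0.0653) and without scaling factors (edgeR adjusted p = 0.0786). Among the related lists, Klf2, a shear-responsive factor (4.38 ± 0.56, edgeR adjusted p = 0.00877), and Icam1 (6.17 ± 1.18, edgeR adjusted p = 0.0358) were called.

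In the fit over all 6 animals, 6 members were called lower in tumour cells than in macrophages: Fos, Junb, Nr4a1, Ier3, Atf3 and Dusp1. Fos and Ier3 were lower in 5 of the 6 animals. Here 31.5% of the 10935 genes tested were called, 14.8% lower and 16.7% higher. Dusp1 and Atf3 differed most firmly. In tumour cells Dusp1 ranged from 36.5 to 361 CPM (mean 131 ± 122, SD, n = 6 animals), against 374 to 2116 CPM in macrophages (947 ± 634, SD, n = 6), and the tumour level was 3.37% to 41.7% of the macrophage level within an animal, with a median of 9.53%. All 6 animals had the lower value in tumour cells, and the log2 fold change was -3.47 ± 0.60 (edgeR adjusted p = 0.00314). Atf3 stood in tumour cells at 1.501% to 39.1% of the macrophage level of the same animal (median 8.88%), was lower in 6 of 6 animals, and had a log2 fold change of -4.13 ± 0.72 (edgeR adjusted p = 0.00339). Ier3 reached 1.98% to 100.1% of the macrophage level (median 11.5%), with a log2 fold change of -3.22 ± 0.85 (edgeR adjusted p = 0.0203). The extremes of this range came from the SHH animals at the low end and MYC replicate 5 at the high end, where tumour cells had 146 CPM and macrophages 146 CPM.

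Junb was lower in tumour cells of 6 of 6 animals, at a median of 22.7% of the macrophage level (log2 fold change -2.51 ± 0.64, edgeR adjusted p = 0.0174), and so was Nr4a1, at a median of 39.1% (log2 fold change -1.87 ± 0.54, edgeR adjusted p = 0.0286). In MYC replicate 5, however, Nr4a1 was all but equal, with 73.1 CPM in tumour cells and 73.6 CPM in macrophages. Fos was lower in 5 of 6 animals, at a median of 41.3% (log2 fold change -1.43 ± 0.34, edgeR adjusted p = 0.0135), and the exception was MYC replicate 5, with 1380.1 CPM in tumour cells and 970.1 CPM in macrophages. The other 4 members did not pass the test. Jun had a log2 difference of -0.42 ± 0.31, Fosb of -0.27 ± 0.38 and Egr1 of 0.08 ± 0.32, whose sign changed under 4 of the alternative settings. Ier2 lay close to the threshold at -0.94 ± 0.32 (edgeR adjusted p = 0.0519). Junb, Nr4a1, Atf3 and Dusp1 were lower in all 6 animals, where 10.9% of genes were. The median of the 10 members was -1.65, against 0.19 over all genes. Without scaling factors the median of all genes moved to 0.56, 3223 genes were called higher and 1360 lower, against 1822 and 1623, and 6 members were still called lower. The call of Nr4a1 was lost when any animal except MYC replicate 5 was left out, with adjusted p-values of 0.0521 to 0.0829 in edgeR, and that of Ier3 without MYC replicate 1, MYC replicate 4 or SHH replicate 1. Without MYC replicate 1 or SHH replicate 1, 3 members were called, since the call of Junb was lost as well. Over all genes these fits called 1301 of 11068 and 1205 of 9596 lower. With the animal block left out, 5 members were called lower, where 13.9% of genes were: Nr4a1 and Ier3 were no longer among them and Ier2 was.

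The lists of related genes were counted in the same comparison of tumour cells with macrophages, where 14.8% of all genes were called lower and 16.7% higher, with a median log2 fold change of 0.19. Differences between the lists were not tested. Of 14 NF-kB early response genes, 12 were called lower in tumour cells (median -3.27), the cytokines Il1b, Ccl3 and Tnf most firmly, and macrophages are a known source of these cytokines. Of 23 other early response genes, 9 were called lower and 2 higher (median -1.38): Socs3, a feedback inhibitor of cytokine signalling, had a log2 fold change of -2.46 ± 0.48, whereas Cyr61, a matrix-associated target of SRF and YAP, had 4.16 ± 0.83 (edgeR adjusted p = 0.00607). Of 10 phosphatases and feedback inhibitors, 4 were called higher, among them Spry2 and Spred2, inhibitors of receptor to MAP kinase signalling, and 2 lower, among them Dusp2 (median of the list 0.25). Heat shock genes had 3 of 11 called higher in tumour cells, including Hsph1 (1.25 ± 0.21) and Hspb1, and 0 lower (median 0.63). Of 17 genes of the SRF and ERK pathway 3 were called lower (median -0.13), and of 12 other AP-1 and CREB/ATF factors 2, Batf and Batf3, which are AP-1 factors of immune cells (median -0.57). Both counts lie near the share of all genes called lower.

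**Figure D3:**
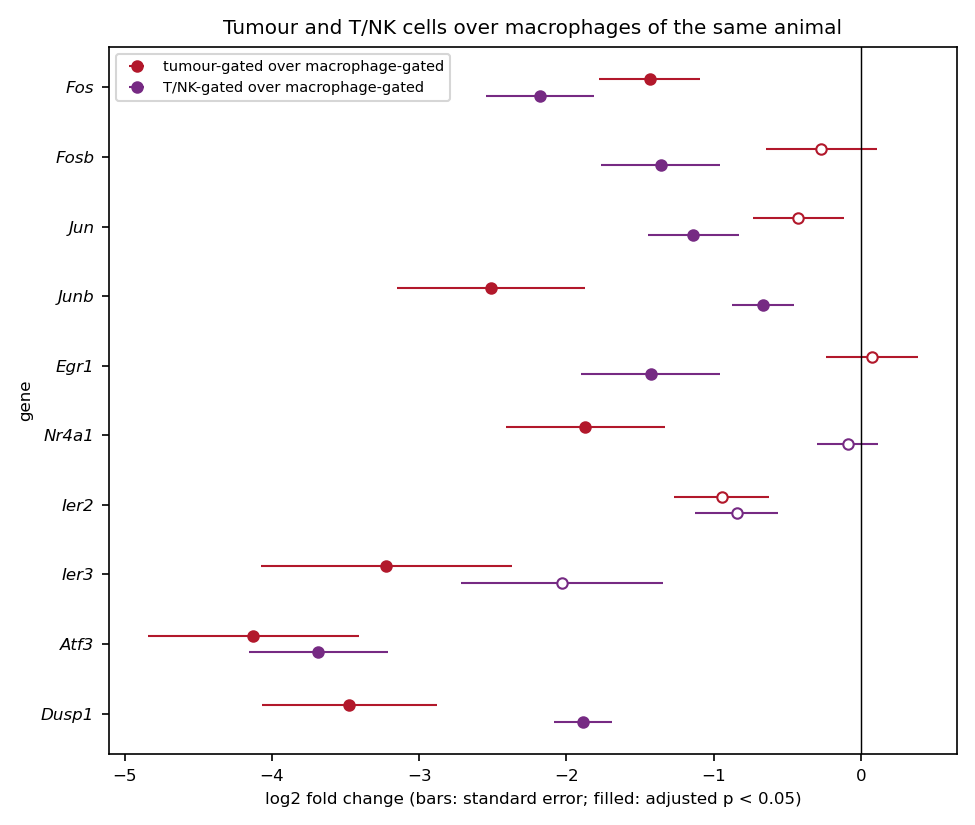
Log2 fold change of each immediate early gene in tumour-gated cells over macrophage-gated cells and in T/NK-gated cells over macrophage-gated cells, paired by animal (6 animals), with standard errors; filled points have an edgeR adjusted p under 0.05. Atf3 (-4.13 and -3.68) and Dusp1 (-3.47 and -1.89) lie far below 0 in both, while Egr1 in tumour cells (0.08) and Nr4a1 in T/NK cells (-0.09) lie beside 0.

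T/NK cells were set against the same macrophages, so this comparison and the last share the macrophage sums. Fos, Fosb, Jun, Junb, Egr1, Atf3 and Dusp1 were called lower in T/NK cells, 7 of 10 members where 26.3% of 9076 genes were called and 14.6% were called lower. Atf3 stood in T/NK cells at a median of 6.03% of the macrophage level (log2 fold change -3.68 ± 0.47, edgeR adjusted p = 0.000388), Fos at 22.5% (-2.18 ± 0.37, edgeR adjusted p = 0.00204) and Dusp1 at 33.3% (-1.89 ± 0.20, edgeR adjusted p = 0.000103), each lower in 6 of 6 animals, where 10.3% of genes were. Egr1 (-1.43 ± 0.47, edgeR adjusted p = 0.0496), Fosb (-1.36 ± 0.41, edgeR adjusted p = 0.0337) and Jun (-1.14 ± 0.31, edgeR adjusted p = 0.0227) were lower by less. Junb, at a median of 73.9% of the macrophage level, had the smallest called difference (-0.66 ± 0.21, edgeR adjusted p = 0.0413), and 11 of 15 alternative settings left it above the threshold. Nr4a1 was the member closest to equality: T/NK cells had 62.0 to 102 CPM in MYC animals and 39.4 and 51.6 CPM in SHH animals, beside 51.4 to 134 CPM and 23.6 and 29.5 CPM in the macrophages, a log2 difference of -0.09 ± 0.21 (SE). In tumour cells of the same animals the difference of Nr4a1 from macrophages was -1.87. Ier3 (-2.03 ± 0.69, edgeR adjusted p = 0.0536) and Ier2 (-0.84 ± 0.28, edgeR adjusted p = 0.0523) missed the threshold. Without scaling factors 4 members were called, and 2054 genes were higher and 1037 lower, against 1062 and 1328. With the animal block left out, 4 members (Fos, Egr1, Atf3 and Dusp1) were called lower, where 11% of genes were. Leaving out MYC replicate 4 or SHH replicate 1 left 3 members called, where 965 of 8420 and 864 of 7387 genes were called lower. Leaving out MYC replicate 1 or SHH replicate 2 left 4, where 1189 of 9763 and 1027 of 9228 genes were called lower. Of the NF-kB list, 8 of 14 genes were called lower, led by Cxcl2, Il1b and Ccl3, and 1 higher (median -1.21, against 0.08 over all genes).

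Single cells differed widely in how many members they contained. At 1000 UMIs per cell, the median macrophage had 4 of the 10 genes detected in MYC replicates 1 and 4 and SHH replicate 1, 3 in MYC replicate 3, and 2 in MYC replicate 5 and SHH replicate 2. Tumour cells had a median of 3 in MYC replicate 5, 2 in MYC replicates 2 and 3, 1 in MYC replicates 1 and 4 and SHH replicate 1, and 0 in SHH replicate 2. Cells with none of the 10 genes made up 6.85% to 45.8% of tumour cells in the MYC libraries, against 32.8% and 51.3% in the SHH libraries. At least 5 members were seen in 4.84% to 15.04% of MYC tumour cells, against 4.58% and 2.66% of SHH tumour cells, and in 9.38% to 42.5% of macrophages. In SHH replicate 2, 31.2% of macrophages had none of the genes and 23.9% had at least 5, whereas in SHH replicate 1 6.83% had none and 35.7% at least 5. MYC replicate 5 stood apart in having fewer macrophages with at least 5 members (9.38%) than tumour cells with as many (15.04%). That library also had the highest summed heat shock level in all 3 classes, 9323 CPM in tumour cells, 7089 CPM in macrophages and 8272 CPM in T/NK cells, and the most carried-over tumour RNA; their part in these shares was not tested.

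**Figure D4:**
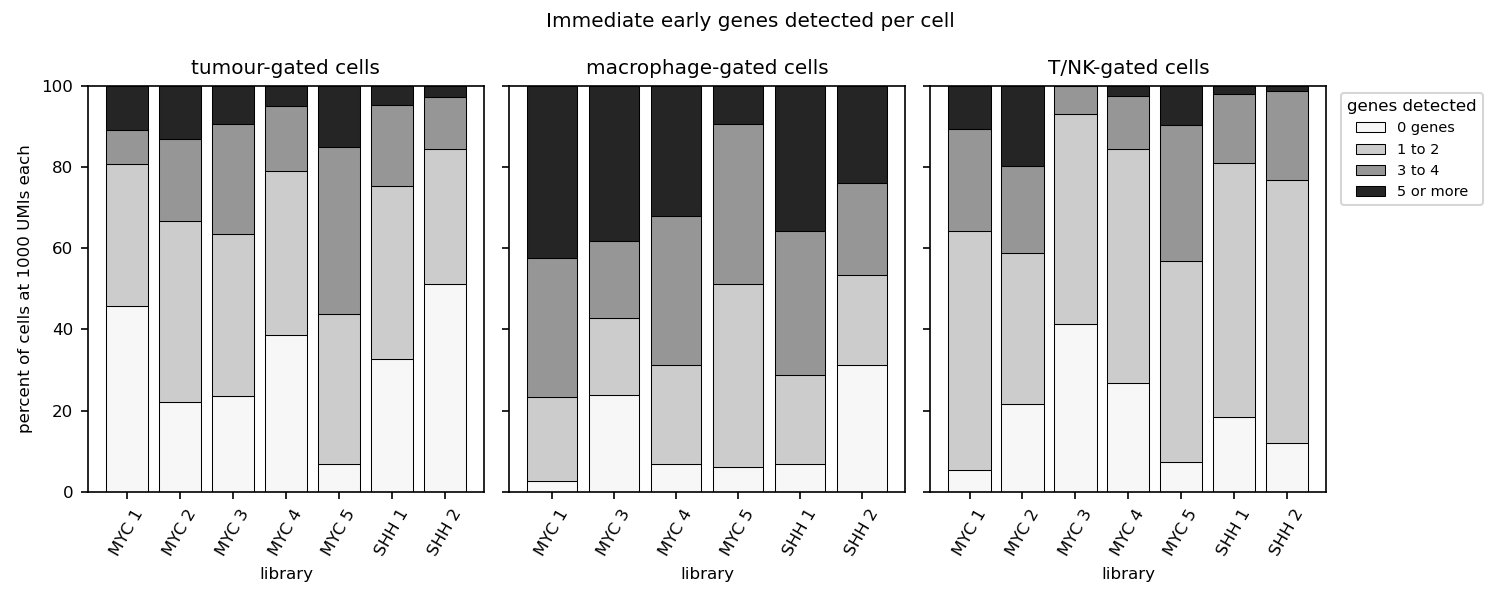
Share of cells, each thinned to 1000 UMIs, with 0, 1 to 2, 3 to 4 or at least 5 of the 10 immediate early genes detected, by library, for tumour-gated, macrophage-gated and T/NK-gated cells. The macrophages of MYC replicate 2 are left out because there were 11. The darkest segment is largest in macrophages (42.5% in MYC replicate 1) and small in SHH tumour cells (4.58% and 2.66%).

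Detection of 1 member went with detection of another to different degrees, described here by the phi coefficient of the thinned cells of each library, which share library and sampling noise. In tumour cells the strongest pairs were Fos with Ier2 (median phi 0.386 over 7 libraries, 0.115 to 0.515), Fos with Junb (0.349), Jun with Ier2 (0.340) and Fos with Egr1 (0.324). Atf3 had the lowest medians of the 45 pairs in tumour cells, with Fos (-0.094) and with Egr1 (-0.057). It was detected in only 0.222% to 3.38% of thinned tumour cells, 1 to 4 cells in each library except MYC replicate 5 (88 cells). These medians therefore cannot show that Atf3 runs apart from Fos or Egr1. The size of phi also depends on how often both genes are detected, so the order of pairs is a description only. In macrophages of 5 libraries the leading pairs were Fos with Junb (0.258, 0.0727 to 0.567) and Egr1 with Ier2 (0.226). In T/NK cells of 6 libraries no pair exceeded a median of 0.148, that of Fos with Fosb.

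Genes outside the 10 were ranked by the likeness of their pattern to the summed members over the 20 sums of a library and class, by Pearson correlation of log2(CPM + 1) over 5672 genes. The 5 most alike were Ccl2, a monocyte chemokine (r = 0.880), Ralb, a small GTPase (0.860), Socs3 (0.821), Adam15, a membrane metalloprotease (0.820), and Ctsb, the lysosomal protease cathepsin B (0.817). All 5 were highest in macrophages on average: Ccl2 had 0 to 345 CPM in tumour cells and 152 to 2839 CPM in macrophages, and Ctsb had 153 to 1070.4 CPM in tumour cells and 1469 to 4923 CPM in macrophages. Among the members, Fos (0.859) and Dusp1 (0.820) followed the sum most closely and Nr4a1 least (0.368). The sums include the members themselves and share libraries and classes, so the coefficients are descriptions only.

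Rarer classes could be read in single libraries, without replicates. The 136 neutrophils of MYC replicate 2 had 949 CPM of Ier2, 897 CPM of Fos and 744 CPM of Junb, with 15.2 CPM of Atf3. The 123 vascular-gated cells of MYC replicate 5 had 1081 CPM of Jun, 740.0 CPM of Fos and 164 CPM of Ier3. The tumour cells of that library had 1209.5, 1380.1 and 146 CPM. The vascular-gated cells carried Col1a2 at 44.7% of its tumour level, and 2397 CPM of the tumour list beside 708 CPM of the vascular list. Smarcb1 stood at 3.25 CPM in them, against 0.972 CPM in tumour cells and 32.2 CPM in macrophages of that library. Their values therefore cannot be read as levels of vascular cells alone. B-gated cells had 98.5 CPM of Nr4a1 in MYC replicate 4 (38 cells) and 45.2 CPM in SHH replicate 1 (73 cells), and 0 UMIs of Ier3 in both. Each Nr4a1 value rested on 7 UMIs, with overlapping exact Poisson intervals of 39.6 to 203 and 18.2 to 93.2 CPM. A list of 8 neutrophil genes ran from 0 to 2210 CPM in the B-gated cells of these 2 libraries. Their list of 5 B cell genes stood at 3348 to 3758 CPM. The library with the higher neutrophil value therefore cannot be read as B cells alone.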

How the data were processed

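The authors deposited 1 table of raw UMI counts per library, 7 in all, with genes in rows and droplet barcodes in columns; the submitters' processing notes name Cell Ranger 2.0.2 and mm10, and the libraries of MYC replicate 5 and SHH replicate 1 were sequenced at 2 times, per the labels' protocols. Each deposited count table lists genes seen in at least 3 barcodes, and a gene not listed was taken as 0.

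Barcodes with at least 500 UMIs, 200 genes and at most 20% mitochondrial UMIs were kept. Tumour-gated cells had no Ptprc, at most 1 UMI of a list of 10 immune genes, at least 3 of a list of 13 tumour genes of both subgroups, and at most 1 vascular or glial UMI. Macrophage-gated and T/NK-gated cells had at least 3 immune UMIs, at least 3 macrophage or 2 T/NK UMIs, and at most 1 UMI of the other class. These gates set no limit on tumour genes, no doublet caller was run, and alternatives applied such a limit, stricter gates and the removal of the top 5% of UMI totals in each library. Counts were summed per animal and class, with MYC replicates 2 and 3 added as 1 animal, as inferred from the number their titles share, and sums of fewer than 20 cells were not used alone.

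Comparisons were fitted over all genes passing edgeR's expression filter with TMM scaling factors, edgeR 4.0.16 quasi-likelihood tests and Benjamini-Hochberg adjustment at 0.05; standard errors are the log2 fold change divided by the root of F. Comparisons between classes kept the animal as a block, since both sums come from 1 animal. DESeq2 1.42.0 and R 4.3.3 served the alternatives. The edgeR fit was tested on simulated counts: in the tumour comparison of MYC with SHH it recovered 28.4% of changes of 4-fold, 95.5% of 16-fold and 100% of 64-fold, and in the comparison of tumour cells with macrophages 83.6%, 100% and 100%. The simulation drew each gene from its mean over all sums with the trended dispersion. It held no animal or gene-specific spread beyond that and left genes of very low mean count unchanged. Recovery in the real data may therefore be lower. Shares of cells were taken after thinning cells of at least 1000 UMIs to 1000, with exact binomial intervals. Intervals cover counting error only, and p-values measure the spread between these animals.

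The members and the lists of related genes were chosen with earlier results of these data known. All members were named in each comparison, and from each list up to 3 genes of smallest p among those called, or the 1 of smallest p where none was. Promoter sequences are RefSeq's for GRCm38.p6. The alternatives without scaling factors, with MYC replicate 3 alone and with a limit on tumour UMIs in immune cells were chosen after seeing the data.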

Additional observations from a re-analysis of the deposited data

Results flagged for a closer look

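Each of the 10 genes was examined in tumour, macrophage and T/NK cells for a MYC animal far from the other 3, which makes 30 groups of 4 values. In 1 of them an animal stood apart: Ier2 in T/NK cells measured 814 CPM in the animal of MYC replicates 2 and 3, against 274 to 317 CPM in the other 3 MYC animals. The gap to the nearest animal made up 0.920 of the range, above the 95% critical value of Dixon's test. The trigeminal library of that animal had 973 CPM over 51 cells and the cerebellar library 289 CPM over 29 cells. Chance flags about 1 in 20 such groups.

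Nr4a1 was listed because its tumour to macrophage difference was higher in MYC than in SHH animals by 3.09 on the log2 scale (edgeR adjusted p = 0.0486). Its tumour level lay below its macrophage level in 6 of 6 animals, at 6.33% to 99.4% of it.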

How the results depend on the processing

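With 2 SHH animals the subgroup comparisons depend on each of them, and subgroup and site cannot be told apart. Depth limits Nr4a1, Ier3 and Atf3 in SHH tumour cells, where 2 to 15 UMIs were counted. No paired analysis was possible because each animal belongs to 1 subgroup for MYC against SHH; between classes the animal was the block, and without it 1818 genes and 5 members were called for tumour against macrophage cells (3445 and 6 with it), and 1077 genes and 4 members for T/NK against macrophage cells (2390 and 7). Of 879 fitted values of single members under alternatives, 751 kept direction and side of the threshold, 51 lost the call, 52 gained one and 25 changed sign; 0 values that were called changed sign, and where the cause is not shown by fewer samples or genes it was not tested.

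For MYC against SHH tumour cells, DESeq2 called 1606 genes and 6 members, stricter gates 5 members, the covariate for sequencing runs 397 genes, and leaving out 1 animal gave 12 to 984 genes and 0 to 6 members. For macrophages, DESeq2 called 400 genes and 1 member, no filter 119 genes, thinning 71, the sequencing runs 5, MYC replicate 3 alone 9, the limit on tumour UMIs 34, and leave-one-out fits 0 to 110. For T/NK cells the same settings gave 36 genes and 1 member with DESeq2, 5 without a filter, 6 with sequencing runs, 1 with the limit, and 0 to 4 leaving out 1 animal. For tumour against macrophage cells thinning gave 1974 genes, and leave-one-out fits gave 1912 to 3356 genes and 3 to 7 members. For T/NK against macrophage cells leaving out 1 animal gave 1513 to 2303 genes and 3 to 9 members, and no scaling 4 members. For the interaction, DESeq2 called 496 genes and 5 members, no filter 846 and 5, stricter gates 2 members, without top UMI totals 298 and 3, thinning 454 and 3, the limit on tumour UMIs 417 and 4, MYC replicate 3 alone 0 members, no scaling 0 members, and leaving out 1 animal 0 to 238 genes and 0 to 3 members. Over all genes, stricter gates called 643 of 8833 between the tumour subgroups and 167 of 10097 for the interaction. For the interaction, MYC replicate 3 alone called 178 of 10656 genes and no scaling 143 of 10935. No scaling called 3091 of 9076 genes for T/NK against macrophage cells. It moved the median log2 change of all genes to -0.22 in the first comparison, 0.22 in macrophages, 0.34 for T/NK against macrophage cells and -0.47 for the interaction.

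Values that changed sign were uncalled. Between subgroups in tumour cells, Egr1 was -0.056 without top UMI totals and -0.0093 without scaling, and Ier2 -0.070 without top UMI totals and -0.25 thinned. In macrophages Atf3 was -0.21 thinned and -0.29 with sequencing runs. In T/NK cells Ier2 was -0.27 thinned, -0.054 with sequencing runs and -0.40 with MYC replicate 3 alone. Between tumour cells and macrophages, Fosb was 0.10 without scaling, and Egr1 -0.12 without top UMI totals and -0.11 without the block. Between T/NK cells and macrophages, Nr4a1 was 0.17 without scaling. Leaving out 1 animal gave Egr1 -0.15 to 0.87 and Ier2 -0.15 to 0.95 in the tumour comparison, Junb -0.56 to 0.030 and Atf3 -0.41 to 0.37 in macrophages, Ier2 -0.37 to 0.30 in T/NK cells, Egr1 -0.20 to 0.34 between tumour cells and macrophages, and Nr4a1 -0.17 to 0.090 between T/NK cells and macrophages.

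Without thinning, the median library had 60.2% of tumour cells, 86.0% of macrophages and 38.2% of T/NK cells with at least 3 members, against 24.7%, 62.9% and 23.3% at 1000 UMIs.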
